A study of Mus musculus with 4 samples.

Results

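Carbonic anhydrases turn carbon dioxide and water into bicarbonate and a proton, and turn them back. In the stomach the reaction supplies the proton that parietal cells pump into the lumen and the bicarbonate that surface mucous cells secrete to shield the epithelium. The enzymes differ in where they sit: Car1, Car2, Car3 and Car13 are cytosolic, Car4 is anchored to the outer face of the membrane by a lipid, and Car9, Car12 and Car14 span the membrane with their catalytic domain outside. Car8 carries the same fold but lacks catalytic activity.

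Described here are 9 genes of this family, chosen by name, in the stomach of FVB mice, 1 year old in both groups. The measured set is 8 of the 22180 named genes, because each gene had to own a probe set with its symbol alone. Car14 shares its 1 probe set with Aph1a and therefore has no value here. Car3 and Car9 had 2 probe sets each, the one with the higher mean over all arrays stood for the gene, and the other 6 genes had 1. Total RNA was hybridised to 4 Affymetrix arrays, 2 labelled Hdc+/+ (wild type) and 2 labelled Hdc-/- (the knockout, which lacks a working gene for histidine decarboxylase, the histamine-making enzyme). All values are log2 probe set values, in which a step of 1 is a factor of 2, and every difference is Hdc-/- minus Hdc+/+.

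Some facts about the whole series bear on every value. Hdc itself read from 3.77 to 4.06 over the arrays with a difference of 0.01 (limma adjusted p = 0.997). It lay below the gene medians of the arrays (4.56 to 4.60) on the Hdc+/+ arrays too, so a loss could hardly show. The position of its probes is also unknown here, so the genotypes rest on the labels. The titles call the arrays biological replicates and name no animals; p-values therefore reflect only how far these samples spread, which may be technical, and 2 arrays a group limit the precision. Hdc+/+ array 2 stood apart on the first principal component (-51.29, against -11.32, 33.75 and 28.86). All 11 hepatocyte markers and 6 of 7 pancreatic acinar markers were highest on it, as were 19.8% of all genes. Hepatocyte signal was not confined to that array. All 11 markers read higher on both Hdc+/+ arrays than on both Hdc-/- arrays, as did 17.6% of all genes. Alb read 11.17 and 12.48 against 4.90 and 4.71. Liver signal and genotype therefore cannot be told apart here. In whole tissue, fewer cells of a type and less RNA per cell cannot be told apart. Gastric markers were present, with the pit cell gene Gkn2 between 13.23 and 13.35 and the parietal proton pump gene Atp4a between 10.42 and 11.08.

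Promoter sequence from RefSeq (GRCm38.p6) was held for 4 of the 9 genes, Car4, Car9, Car12 and Car14. The 100 bases before the annotated start are shown for the membrane-spanning pair Car9 and Car12, because their levels are set beside genes induced by hypoxia below. Capitals mark CACGT, the reverse complement of ACGTG, the core letters of the hypoxia response element; both strands were searched. The windows are chr4:43506926-43507025 (plus strand) for Car9 and chr9:66713586-66713685 (plus strand) for Car12.
Car9: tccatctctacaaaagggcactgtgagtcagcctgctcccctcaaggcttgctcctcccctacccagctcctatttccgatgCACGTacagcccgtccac
Car12: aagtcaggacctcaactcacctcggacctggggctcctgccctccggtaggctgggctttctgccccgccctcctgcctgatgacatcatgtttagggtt
Over the full window of 300 bases around the start, Car9 held the letters once, beginning 18 bases before the start, and they were not in the Car12 window. Car4 held them once, beginning at base 3 after the start, and Car14 once, beginning 7 bases before it. Of all 32851 promoter windows of this length, 19.6% held them on either strand, so a match alone does not show whether it is a working site.

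The signals of the family spanned a wide range. Car2, the enzyme that parietal and surface mucous cells are known to hold in quantity, lay above 99.85% of named genes on every array. Car13 ranged from the 95.4th to the 96.5th percentile and Car9 from the 87.5th to the 96.1st. Car8 lay between the 71.6th and the 80.3rd, Car12 between the 40.2nd and the 62.5th and Car4 between the 41.3rd and the 48.8th. Car1, the enzyme of red cells and colon, read at most at the 28.3rd. Car3 had no fixed place, ranging from the 99.7th percentile on Hdc+/+ array 2 to the 55.0th on Hdc-/- array 1. Probes differ in how strongly they respond, so these places describe signal and do not rank the isoforms by transcript number.

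By genotype, Car9 and Car3 stood out by size and in opposite directions, and no member passed the test over all genes; whether members differ from each other in response was not tested. limma called 0 of the 8 members at an adjusted p under 0.05, against 0.00451% of all genes called higher and 0% called lower. At a raw (unadjusted) p under 0.05, 1 member was higher (Car9) and 1 lower (Car3), against 3.68% and 4.87% of all genes. The same pair met a raw p under 0.05 together with a log2 difference of at least 1, as 0.482% of all genes did upward and 1.68% downward. The groups did not overlap for 1 member on the higher side (Car9) and 2 on the lower side (Car3 and Car13), against 21.5% and 17.6% of all genes. The median difference of the 8 members was 0.09 (-0.17 without Hdc-/- array 1), against 0.02 over all genes. Of all 22180 genes, 12006 differed upward and 10174 downward, which is the background for every count of directions below. With 2 arrays against 2, the smallest p that an exact two-sided permutation test can reach is 0.333.

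**Figure D1:**
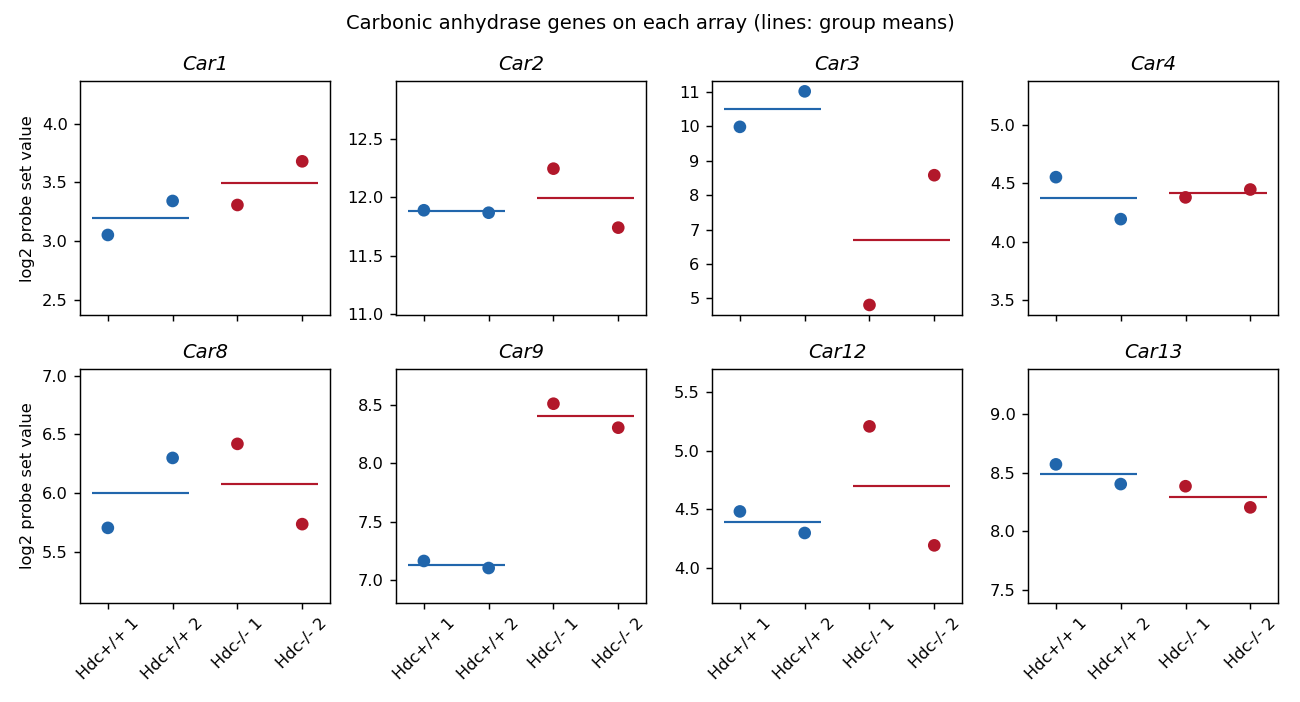
Log2 probe set value (vertical axis, own range per panel) of the 8 measured carbonic anhydrase genes on Hdc+/+ arrays 1 and 2 (blue) and Hdc-/- arrays 1 and 2 (red), with lines at the group means. Car9 lies above 8.3 on both Hdc-/- arrays and near 7.1 on both others, while Car3 spans 4.80 to 11.02.

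Car9 encodes a membrane-spanning enzyme with an extracellular active site, known for its high level in normal gastric mucosa and for its induction by hypoxia. It read 7.16 and 7.10 on the Hdc+/+ arrays and 8.51 and 8.31 on the Hdc-/- arrays. Both Hdc-/- arrays were high, and the space of 1.14 between the groups exceeded the largest gap of 0.21 inside a group. The difference was 1.28 (SE 0.17, n = 2 per group, 95% interval 0.86 to 1.70), or 2.42-fold, with a raw limma p of 0.000368 and an adjusted p of 0.247. It stood at the 99.7th percentile of the differences of all genes. Leaving out 1 array at a time, the difference ran from 1.17 to 1.38, with adjusted p from 0.218 to 0.782.

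The dimmer Car9 probe set did not show this pattern. It read 5.78 and 5.45 on the Hdc+/+ arrays and 5.77 and 5.74 on the Hdc-/- arrays, so the groups overlapped, and its difference was 0.14 (SE 0.20 in the fit over all probe sets). Which part of the transcript each probe set reads is unknown here, so the Car9 difference is that of 1 probe set, and it was 0.71 when both were averaged.

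Markers of the surface pit cell, a cell type known to hold gastric Car9 but not taken here as its only source, were not higher on the same arrays. All 8 pit markers read lower on the Hdc-/- arrays on average (7 of 8 after cyclic loess or quantile normalization), with a median difference of -0.23 (-0.06 without Hdc-/- array 1 and -0.38 without Hdc-/- array 2) and a summed linear level of 44107 to 44901 on Hdc+/+ against 34336 to 41788 on Hdc-/- arrays. limma passed 0 of the 8 over all genes, against 0 higher and 2 lower at a raw p under 0.05 (3.68% and 4.87% of all genes). The 2 with the smallest p were the stomach calpain gene Capn8 (-1.32, SE 0.22, adjusted p = 0.279) and the mucin-like gene Mucl3 (-1.23, SE 0.28, adjusted p = 0.371). Pit signal was high, with list medians of 12.09 to 12.66 by array and the highest value of the series (13.35) in Gkn2. Signal near the top of the scale may limit the pit differences, which was not tested. Chief cell markers lay the other way, with all 5 above 0 and a median of 1.07 (0.71 without Hdc-/- array 1). Those with the smallest p were the chymosin gene Cym (3.09, SE 0.51, adjusted p = 0.279) and the intrinsic factor gene Cblif (1.07, SE 0.25, adjusted p = 0.396), and limma passed 0 of the 5 over all genes against 4 at a raw p under 0.05. The part of cell makeup in the Car9 difference was not tested.

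Genes known to be induced by hypoxia-inducible factor, as Car9 is, leaned upward on Hdc-/- array 1. Of 13 listed targets 11 were measured, and 8 of the 11 were highest on that array, as were 27.2% of all genes. Their median difference was 0.29, with 10 above 0, and it was -0.13 without Hdc-/- array 1 and 0.53 without Hdc-/- array 2. limma passed 0 of the 11 over all genes, against 1 higher and 0 lower at a raw p under 0.05 (3.68% and 4.87% of all genes). Adm, the adrenomedullin gene, read 5.61 and 5.56 on the Hdc+/+ arrays and 6.73 and 6.08 on the Hdc-/- arrays (0.82, SE 0.25, adjusted p = 0.482). Egln3, an oxygen-sensing hydroxylase gene, read 9.14 and 8.91 against 10.68 and 9.12 (0.87, SE 0.49, adjusted p = 0.679). The groups did not overlap for 3 of the 11 targets (Adm, Pdk1 and Kdm3a, all higher), as for 21.5% of all genes on that side. Car9 was also highest on Hdc-/- array 1, at 0.74 above its own mean. It differed from the list's median on Hdc-/- array 2, where it stood 0.54 above its own mean and that median was -0.24.

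Car12, the other measured enzyme with an extracellular active site and a membrane span, read 4.48 and 4.30 on the Hdc+/+ arrays and 5.21 and 4.19 on the Hdc-/- arrays. Hdc-/- array 1 was high and the other 3 lay close together, so the groups overlapped. The difference was 0.31 (SE 0.34, 95% interval -0.55 to 1.17, limma adjusted p = 0.859), and it was -0.20 when Hdc-/- array 1 was left out and 0.82 when Hdc-/- array 2 was. Its pattern over the 4 arrays was closest to those of hypoxia targets among the 153 listed genes that are no members. The measure was the root mean square difference between deviations from each gene's own mean, which was 0.06 for the glucose transporter gene Slc2a1, 0.10 for the glycolytic gene Pgk1 and 0.16 for Bnip3. Deviations were not scaled, so genes that vary little over the arrays lie close to each other, and a small value does not show a shared source. For Car9 the closest were the receptor gene Ret (0.26), Adm (0.28) and Cblif (0.29). Closeness to a hypoxia target was not particular to Car12 and Car9. Such targets were also among the 3 closest to Car1 (Pdk1, 0.10), Car2 (Vegfa, 0.07) and Car8 (Vegfa, 0.17).

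**Figure D2:**
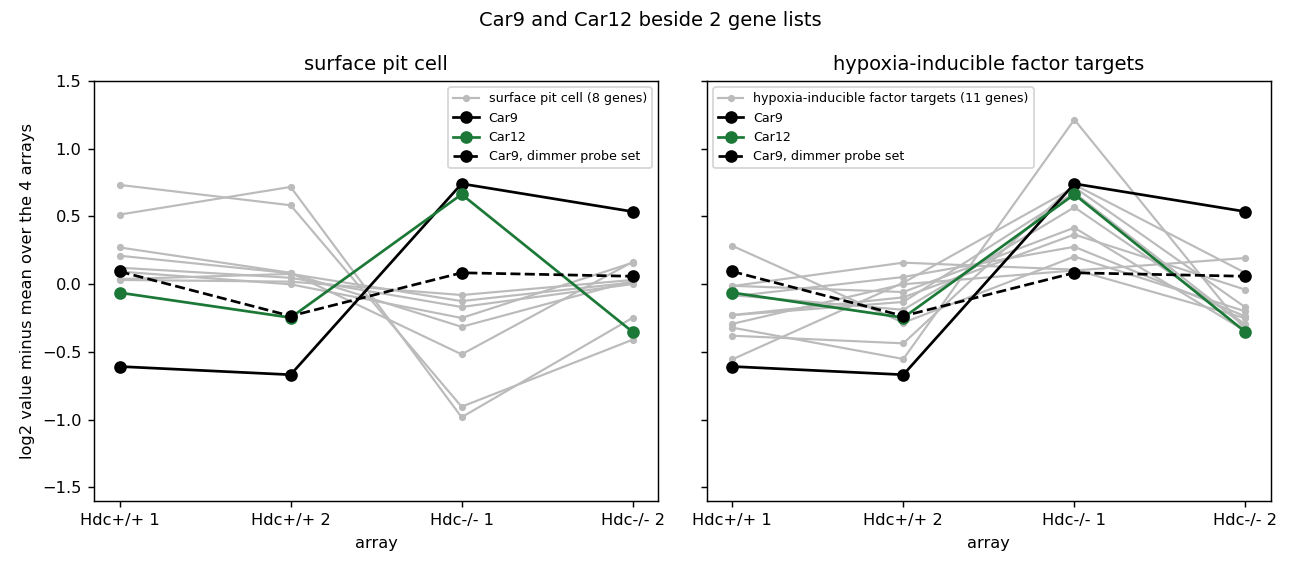
Log2 value minus the gene's mean over the 4 arrays (vertical axis) for Car9 (both probe sets) and Car12 beside surface pit cell markers (left, 8 genes) and hypoxia-inducible factor targets (right, 11 genes), with lines joining the values of 1 gene. Car12, the brighter Car9 probe set and 8 of the 11 targets are highest on Hdc-/- array 1, and that Car9 probe set is high on Hdc-/- array 2 as well.

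Car3 encodes a cytosolic enzyme of low activity that is abundant in fat, skeletal muscle and liver. It read 9.99 and 11.02 on the Hdc+/+ arrays and 4.80 and 8.58 on the Hdc-/- arrays. Both Hdc-/- arrays were lower than both others, but they differed from each other by 3.77, more than the space of 1.41 between the groups. The difference was -3.81 (SE 1.18, n = 2 per group, 95% interval -6.74 to -0.88), or 14.0-fold lower, with a raw limma p of 0.0195 and an adjusted p of 0.486. With limma's trended and robust prior the SE was 1.70 and the raw p 0.123. With the replicate number as a block they were 0.63 and 0.00137 (adjusted p = 0.225), so the raw p of Car3 depended on the model. Leaving out Hdc-/- array 1 gave -1.92 and leaving out Hdc-/- array 2 gave -5.70, while the fits lacking Hdc+/+ array 1 or 2 gave -4.33 and -3.29. The dimmer Car3 probe set kept the order of the arrays, at 7.06 and 7.91 against 2.92 and 5.93, with a difference of -3.06 (SE 1.00 in the fit over all probe sets).

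Adipocyte markers read lower on the same arrays, by less than Car3. All 10 measured markers of 11 listed were below 0, with a median difference of -0.65 (-0.43 without Hdc+/+ array 2 and -1.02 without Hdc+/+ array 1) and summed linear levels of 1771 to 2376 on Hdc+/+ and 814 to 1086 on Hdc-/- arrays. limma passed 0 over all genes, against 0 higher and 5 lower at a raw p under 0.05 (3.68% and 4.87% of all genes). Adipoq, which encodes the fat hormone adiponectin, read 6.07 and 6.80 against 4.14 and 4.50 (-2.11, SE 0.29, adjusted p = 0.247), and the lipase gene Lpl differed by -1.50 (SE 0.25, adjusted p = 0.279). The order of the arrays seen for Car3, from Hdc+/+ array 2 through array 1 to Hdc-/- array 2 and array 1, was shared by 6 of the 10 adipocyte markers, 6 of the 11 hepatocyte markers, 5 of the 12 squamous markers, 4 of the 15 intestinal markers and 5.01% of all genes, so it was not seen in fat markers alone. Closest in pattern to Car3 were the fatty acid binding protein genes Fabp4 of fat (0.78) and Fabp2 of intestine (0.90), then Sprr3 of squamous epithelium (0.94). Fabp4 read 9.20 and 10.03 against 5.72 and 7.75, so it shared the low Hdc-/- array 1.

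Other tissues known for Car3 were also examined. All 11 hepatocyte markers read lower, with a median of -4.28 (-2.79 without Hdc+/+ array 2) and summed linear levels of 4457 to 13512 on Hdc+/+ against 309 to 488 on Hdc-/- arrays. limma passed 0 over all genes, against 11 lower at a raw p under 0.05, as were 4.87% of all genes. The hepatocyte markers with the smallest p were the albumin gene Alb (-7.02, SE 0.42, adjusted p = 0.0611) and Serpina1c (-7.61, SE 0.56, adjusted p = 0.0611). Around gene means, Car3 stood at -3.79 and -0.02 on Hdc-/- arrays 1 and 2, where the hepatocyte median was -2.31 and -1.96 and the adipocyte median -0.56 and -0.09, so both lists differed less between these arrays than Car3 did. Skeletal muscle markers did not share the direction, with 8 of 10 above 0 and a median of 0.13 (-0.05 without Hdc-/- array 2 and 0.26 without Hdc-/- array 1), and the muscle creatine kinase gene Ckm read between 4.81 and 4.94 on all arrays. Of the muscle list, the myosin genes Myh1 (0.71, SE 0.16, adjusted p = 0.371) and Mylpf (0.62, SE 0.33, adjusted p = 0.659) had the smallest p. In that list 1 gene was higher at a raw p under 0.05 (3.68% of all genes) while limma passed 0. Muscle signal was low, with list medians of 4.24 to 4.58 by array against gene medians of 4.56 to 4.60. Myh1 and Mylpf had means of 3.31 and 3.01. Low signal may limit the muscle differences, which was not tested. The part of fat or liver tissue in the Car3 difference was not tested.

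**Figure D3:**
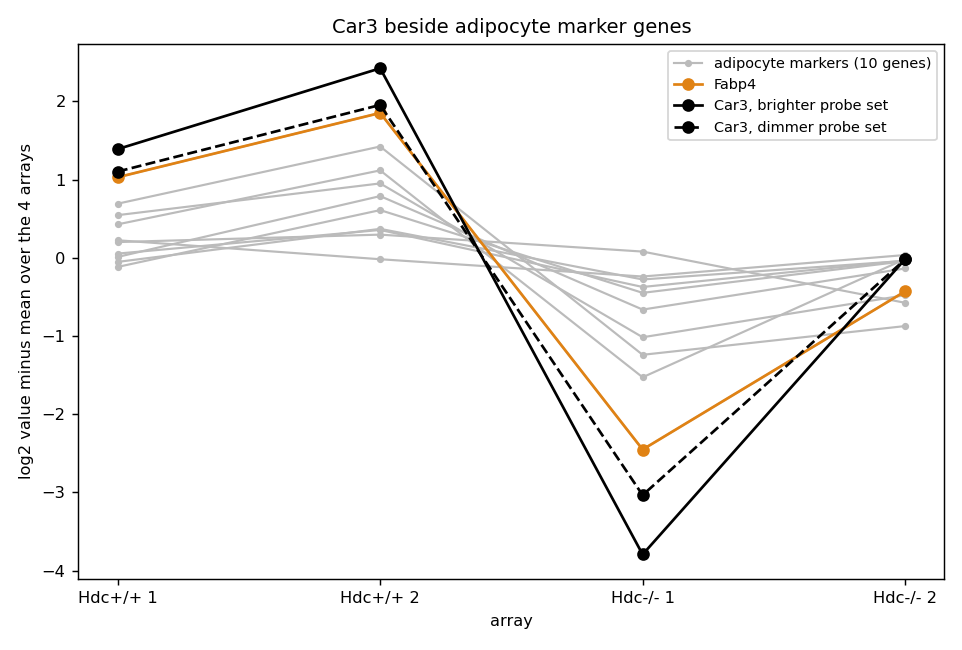
Log2 value minus the gene's mean over the 4 arrays (vertical axis) for both Car3 probe sets, Fabp4 and the other adipocyte markers (10 markers in all), with lines joining the values of 1 gene. Car3 lies at -3.79 on Hdc-/- array 1 and at -0.02 on Hdc-/- array 2, and Fabp4 is the marker that comes closest to it.

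Car2, the main cytosolic enzyme of acid-secreting cells, read 11.89 and 11.87 on the Hdc+/+ arrays and 12.24 and 11.74 on the Hdc-/- arrays. The Hdc-/- arrays enclosed the others, so the groups overlapped. The difference was 0.11 (SE 0.22, 95% interval -0.42 to 0.65, limma adjusted p = 0.931), and it was -0.14 without Hdc-/- array 1. A p that misses the threshold does not show equal levels. Parietal cell markers, 11 of 11 measured, had a median difference of 0.13 (-0.06 without Hdc+/+ array 2 and 0.35 without Hdc+/+ array 1). Of these markers 3 were higher and 0 lower at a raw p under 0.05 (3.68% and 4.87% of all genes), and limma passed 0 over all genes. The ones with the smallest p were Slc26a7, a chloride and bicarbonate exchanger of parietal cells (0.96, SE 0.31, adjusted p = 0.502), and the nuclear receptor gene Esrrg (0.55, SE 0.20, adjusted p = 0.552). The patterns closest to Car2 were those of Tspo2 (0.06), Vegfa (0.07) and Pvalb (0.09), of which Tspo2 and Pvalb gave low signal (means 2.90 and 3.93).

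Car13, a cytosolic enzyme whose gene lies beside Car1, Car3 and Car2 on chromosome 3 (GRCm38.p6 gene order), read 8.57 and 8.40 on the Hdc+/+ arrays and 8.38 and 8.20 on the Hdc-/- arrays. The groups were separated by 0.02 only. The difference was -0.19 (SE 0.17, 95% interval -0.62 to 0.24, limma adjusted p = 0.811), and it was -0.10 without Hdc-/- array 2 and -0.11 without Hdc+/+ array 1. The genes of this cluster, in the order Car13, Car1, Car3 and Car2, showed no common direction, with differences of -0.19, 0.30, -3.81 and 0.11. The closest patterns to Car13 were Fxyd4 (0.03), Cckbr (0.08) and Tagln (0.08).

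Car8 encodes the carbonic anhydrase-related protein without catalytic activity, which is known to bind the inositol trisphosphate receptor. It read 5.70 and 6.30 on the Hdc+/+ arrays and 6.42 and 5.73 on the Hdc-/- arrays. Each group held 1 high and 1 low array, and the gaps of 0.60 and 0.69 within the groups exceeded the difference of 0.08 (SE 0.31, 95% interval -0.70 to 0.85, limma adjusted p = 0.975). Leaving out 1 array moved that difference between -0.27 and 0.42. The patterns closest to Car8 were those of Vegfa (0.17), the sodium bicarbonate cotransporter gene Slc4a4 (0.18) and Pvalb (0.19).

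Car1 and Car4, known as enzymes of the colon surface and of red cells (Car1) or capillaries (Car4), gave low signal. Car1 read 3.05 and 3.34 on the Hdc+/+ arrays and 3.31 and 3.68 on the Hdc-/- arrays, a difference of 0.30 (SE 0.21, 95% interval -0.22 to 0.82, limma adjusted p = 0.748) with overlapping groups, which was 0.11 without Hdc-/- array 2, 0.15 without Hdc+/+ array 1 and 0.48 without Hdc-/- array 1. Car4 read 4.55 and 4.19 against 4.38 and 4.45, and the Hdc-/- arrays lay between the others, with a difference of 0.04 (SE 0.19, 95% interval -0.43 to 0.51, limma adjusted p = 0.979) that was -0.14 without Hdc+/+ array 2. Of the colon markers, 4 of 4 measured, the water channel gene Aqp8 (-0.64, SE 0.33, adjusted p = 0.648) and Cyp2c55 (-0.25, SE 0.17, adjusted p = 0.748) had the smallest p, and the list's median was -0.22. That list mixed bright and dim genes. Lypd8 read 12.10 to 12.26, while Aqp8, Fxyd4 and Cyp2c55 had means of 3.51, 4.12 and 5.31, so its median says little about colon epithelium. Only 4 of the 11 erythroid markers were measured, without the globin genes, at a median of 0.05 (-0.02 without Hdc+/+ array 2 and -0.01 without Hdc-/- array 1), and Tspo2 (0.16, SE 0.19) and Klf1 (-0.16, SE 0.21) had the smallest p. The endothelial list had a median of -0.28 over 9 genes (-0.15 without Hdc+/+ array 2 and -0.43 without Hdc+/+ array 1). At a raw p under 0.05, 0 of its genes were higher and 2 lower (3.68% and 4.87% of all genes). The 2 were Emcn (-0.63, SE 0.18, adjusted p = 0.460) and Tek (-0.55, SE 0.19, adjusted p = 0.540). limma passed 0 genes of these 3 lists over all genes, and 0 colon and 0 erythroid genes had a raw p under 0.05. The patterns closest to Car1 were Pdk1 (0.10), Slc4a8 (0.11) and Mep1a (0.14), and those closest to Car4 were Elavl4 (0.04), Epb42 (0.05) and Atp4b (0.07).

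The remaining carbonic anhydrase genes showed smaller differences than Car9 and Car3. Of 7 listed, 6 were measured: the mitochondrial Car5b, the secreted Car6, the cytosolic Car7, the inactive Car10 and Car11, and the lipid-anchored Car15. Their differences ran from -0.21 to 0.16 with 3 on each side of 0 (2 above and 4 below after cyclic loess), the groups overlapped for all 6, and limma passed 0 over all genes and 0 at a raw p under 0.05. The smallest p belonged to Car10 (-0.21, SE 0.21, adjusted p = 0.845) and Car6 (0.16, SE 0.29, adjusted p = 0.921). Only Car5b, with a mean of 7.55, lay well above the gene medians of the arrays (4.56 to 4.60). The means of the others ran from 3.45 (Car6) to 4.93 (Car11), so low signal may limit their differences, which was not tested. The plot of differences by gene sets them beside the 8 members.

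**Figure D4:**
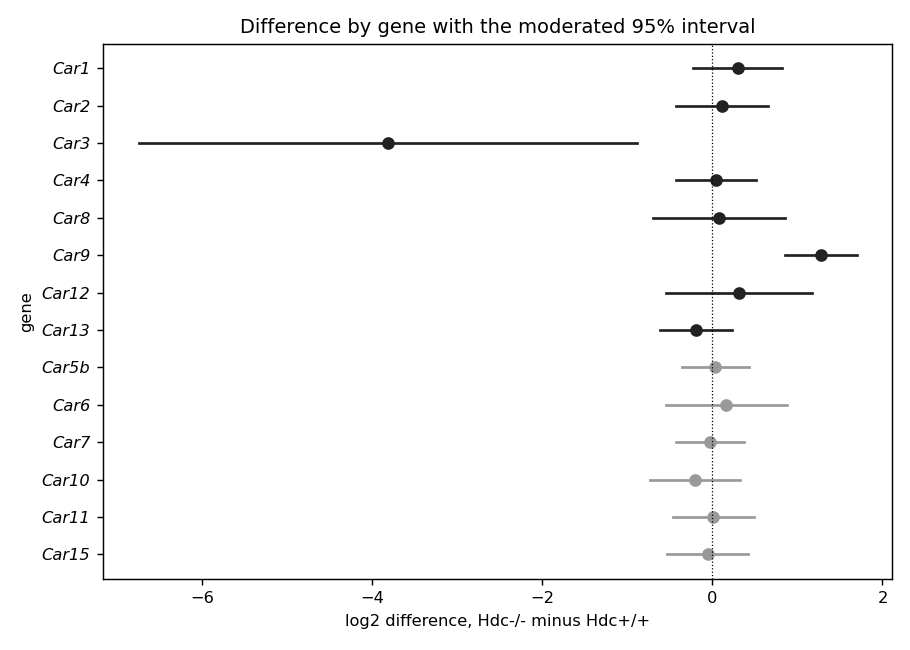
Log2 difference, Hdc-/- minus Hdc+/+ arrays (horizontal axis), of the 8 measured carbonic anhydrase genes (black) and 6 further genes of the family (grey), with bars for the moderated 95% interval. The bars of Car9 (0.86 to 1.70) and Car3 (-6.74 to -0.88) leave out 0 before adjustment over all genes, and the other 12 include it.

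Bicarbonate transporters, which carry the product of these enzymes across membranes, had a median difference of -0.15 over 14 measured genes of 15, with 3 above 0 and 11 below (4 and 10 after quantile normalization), and the median ran from -0.24 without Hdc-/- array 2 to -0.07 without Hdc+/+ array 2. limma passed 0 over all genes, against 1 higher (Slc26a7) and 0 lower at a raw p under 0.05 (3.68% and 4.87% of all genes). Slc26a7 read 6.02 and 5.35 on the Hdc+/+ arrays and 6.94 and 6.34 on the Hdc-/- arrays. Slc26a3, the intestinal chloride and bicarbonate exchanger, read 4.96 and 9.70 against 3.50 and 4.16 (-3.50, SE 1.44, adjusted p = 0.588), and Hdc+/+ array 2 alone was high. Intestinal markers were highest on that array in 13 of 15 cases, with a median difference of -1.23 that was -0.55 without it and -2.20 without Hdc+/+ array 1. The intestinal genes with the smallest p were Fabp2 (-3.92, SE 0.50, adjusted p = 0.247) and Fabp1 (-3.91, SE 0.60, adjusted p = 0.256). limma passed 0 of the 15 over all genes against 6 lower at a raw p under 0.05, as were 4.87% of all genes.

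Other cell types the tissue could hold were counted in the same way, and limma passed 0 genes of their lists over all genes. Squamous epithelium of the forestomach had a median of -0.68 over 12 genes, 7 of them lower at a raw p under 0.05, against 4.87% of all genes. Its smallest p were those of Krt4, a keratin (-2.15, SE 0.21), and of Flg, filaggrin (-1.35, SE 0.20). Smooth muscle had a median of -0.24 over 8 genes (-0.16 without either Hdc+/+ array 2 or Hdc-/- array 2) with 1 lower, and its smallest p were those of Cnn1 (-0.50, SE 0.17) and Actg2 (-0.49, SE 0.20). Pancreatic acinar genes had a median of -0.99 over 7 genes with 0 at a raw p under 0.05, the smallest p being those of Clps (0.45, SE 0.23) and Ctrb1 (-2.88, SE 1.74), and the median was 0.25 without Hdc+/+ array 2 and -3.68 without Hdc+/+ array 1. Enteric neuron genes had a median of 0.03 over 9 genes (0.20 without Hdc+/+ array 1) with 1 higher at a raw p under 0.05 (3.68% of all genes). That was Ret (0.83, SE 0.23), and next came Snap25 (0.48, SE 0.21).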

How the data were processed

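The deposited values are log2 probe set values of 4 arrays, normalized by the authors with RMA (the submitters' processing notes list oligo and Affymetrix Power Tools besides). They ran from 0.384 to 13.3. RMA includes a summary of probes into probe sets, but its settings, any filtering of probes and the build are unknown here.

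Of 41345 probe sets, 23521 had 1 symbol in the platform annotation, 1814 several and 16010 none. The probe set with the highest mean stood for a gene. limma (version 3.58.1, R 4.3.3; lmFit and eBayes, no covariate, 2 residual and 3.62 prior degrees of freedom) compared the groups over 22180 genes with Benjamini-Hochberg adjustment at 0.05, after being tested on simulated data. No filter on signal was set. Every adjusted p is limma's. Lists are given by counts and medians, without a set test.

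The members and lists were chosen with earlier results of these data known. All measured members are given. From each list the 2 genes with the smallest p are named where none passed, and for each member the 3 listed genes closest in pattern. Gkn2, Atp4a, Ckm and Fabp4's levels were added after their values were seen.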

Additional observations from a re-analysis of the deposited data

How the results depend on the processing

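No member was called under any adjusted setting, and 2 (Car9 and Car3) met the raw p rule with a log2 difference of at least 1, under which 107 genes were higher (Car9 at 1.28) and 372 lower (Car3 at -3.81). Over all genes, limma called 1 higher and 0 lower as reported. It called 2 and 3 after a further quantile normalization of the deposited values, 3 and 2 with a trended and robust prior, and 0 higher when every probe set was tested. With the replicate number as a block it called 6 lower. Over all genes the deviations of same-numbered arrays from their group means correlated weakly (-0.12), and with the crossed pairing as a block, chosen after seeing the data, it called 0 higher and 0 lower. The labels do not say what the number stands for. With each array left out in turn, 0 to 3 genes were called higher and 0 to 158 lower, the 158 without Hdc+/+ array 1. The differences ran from 1.17 to 1.38 for Car9, from -5.70 to -1.92 for Car3, from 0.11 to 0.48 for Car1 and from -0.28 to -0.10 for Car13. They changed sign for Car2 (-0.14 to 0.37), Car4 (-0.14 to 0.22), Car8 (-0.27 to 0.42) and Car12 (-0.20 to 0.82). No other setting turned a member's direction. No cause of these shifts was tested, and a setting that needs background values could not be run.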
